A study of Drosophila melanogaster with 62 samples.

Results

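The contacts of the *dac* locus were compared between larval imaginal leg discs and embryos of wild-type flies, in 6 of the 62 samples of the series. The 3 larval leg disc libraries were set against 3 embryo libraries, each group labelled Rep1 to Rep3, all with the genotype Wild type and grown at 20 °C. The assay was 4C-seq, in which DNA joined by proximity ligation to a fixed restriction fragment, called the viewpoint, is sequenced, and a region near the viewpoint in the nucleus gathers more reads. Each sample was counted from 2 viewpoints, PRE2 and gypsy2, the second sharing its name with a gypsy insulator insertion that flies with the genotype Wild type do not carry. No label or protocol used here states the embryo age, the number of animals or discs per library or whether replicates were separate collections, so p-values measure the spread between these libraries only, which may be technical. A leg disc is a small epithelial primordium of the adult leg, whereas a whole embryo mixes all cell types. A contact made more often in all cells and a contact made in a larger fraction of the cells cannot be told apart in such bulk libraries. Another 3 embryo libraries, Rep4 to Rep6, are titled WT but have a gypsy insertion in their genotype field. They were kept apart and serve below as a second, much deeper embryo reference.

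*dac* encodes Dachshund, a nuclear factor needed for intermediate segments of the leg. In *Drosophila*, genes of this kind are held silent outside their domain by Polycomb group proteins, which are recruited by Polycomb response elements (PREs) and which can bring distant PREs into contact. At *dac* a PRE beside the gene, PRE2, loops to another PRE, PRE1, in an intron of the neighbouring gene *CG5888*. GAGA factor binds GAGAG repeats and is found at many PREs. Fly chromosomes also keep large-scale habits: in early embryos, arms lie folded side by side from centromere to telomere, the Rabl arrangement, so that loci at similar positions along different arms tend to be neighbours.

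The PRE2 viewpoint bin, taken as the 1-kb bin of highest count, ran from 16487001 to 16488000 on chromosome 2L of dm6, between the start of *dac* (16466512 to 16485998, minus strand) and *Nepl8*, a gene of the neprilysin-like family (16488148 to 16490182). The gypsy2 viewpoint bin ran from 16465001 to 16466000, just beyond the 3′ end of *dac* and 22.0 kb from the first. Beyond it at lower coordinates lie *Idgf3*, *Idgf2* and *Idgf1*, which encode imaginal disc growth factors, and *CG5888* (16400175 to 16448469), whose span takes in *Idgf1* and the start of *Idgf2*. At higher coordinates *Tpr2*, a cochaperone gene, *CG5953* and the long gene *mtgo* (16545016 to 16663218) follow. Stretches of 60 bases from the regions that the results below turn on are shown to give the GAGAG content of each. They were read from the dm6 plus strand, outside annotated exons, with GAGAG or its reverse complement CTCTC in capitals, and were chosen as the stretch with most matches in its region. In order they come from the PRE2 viewpoint bin (chr2L:16487119-16487178), from the gypsy2 viewpoint bin (chr2L:16465081-16465140), from an intron of *crp* in a window that was higher in larvae (chr2L:16284944-16285003), and from an intron of *mtgo* in a window that was lower (chr2L:16652377-16652436).
PRE2 viewpoint bin: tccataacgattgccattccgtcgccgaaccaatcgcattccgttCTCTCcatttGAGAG
gypsy2 viewpoint bin: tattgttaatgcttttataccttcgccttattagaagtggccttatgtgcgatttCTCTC
crp window: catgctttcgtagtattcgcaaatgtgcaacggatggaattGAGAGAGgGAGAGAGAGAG
mtgo window: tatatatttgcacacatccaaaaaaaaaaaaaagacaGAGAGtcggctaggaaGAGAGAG
Of all 60-base stretches of 2L, 6.75% held at least 1 match. The whole PRE2 viewpoint bin held 3 matches (overlapping ones counted, both strands), a number that 18.4% of the 1-kb bins of 2L reached, and the gypsy2 bin held 2, which 37.1% reached. The 10-kb window of the *crp* stretch held 55, which 0.170% of the 10-kb windows of 2L reached, and that of the *mtgo* stretch held 9, below the 2L median of 14. Windows higher and lower in larvae were not set apart by this number: the named higher windows held 8 to 55 matches from gypsy2 and 8 to 34 from PRE2, and the named lower ones 9 to 25 and 4 to 17. The window that rose most from gypsy2, also in *crp*, held 18, and a pair of lower windows in *grp* held 22 and 25. A match is a description of the letters and not a bound site.

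The larval libraries were deeper than the embryo libraries from both viewpoints. From PRE2 the embryo libraries held 800269, 1320945 and 1148485 counts and the larval libraries 2274115 to 2450581, and from gypsy2 the embryo libraries held 899390 to 1461167 and the larval ones 3997998 to 4811772. Stage and depth therefore do not overlap, and shares within a library were compared, also after thinning the larval libraries to the median embryo depth. The viewpoint bin and 5 kb on either side were left out; this zone held 27.4% to 29.9% of larval and 30.5% to 36.2% of embryo counts from PRE2, and 21.7% to 27.7% of larval and 15.2% to 19.9% of embryo counts from gypsy2. The deeper embryo reference held 14352639 to 24823064 counts, with 48.0% to 72.7% of them in this zone. Over 10-kb windows, profiles of log2 shares correlated at 0.993 to 0.997 among embryo libraries of a viewpoint, at 0.98 to 0.99 among larval libraries, and at 0.968 to 0.985 between stages (Pearson's r across 99 windows, which are not independent replicates). With 3 libraries against 3 the exact two-sided permutation test of a single value cannot go below p = 0.1. Each of the 147 values measured per library whose larval and embryo ranges did not overlap has that p (0.173 after Benjamini-Hochberg adjustment over all 147), and 85 of them, 57.8%, were of this kind. Ranges that overlap have a larger p, which is given with them.

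Larval leg disc libraries had more of their counts on the viewpoints' own arm, 2L. From PRE2 the share of counts on 2L was 81.0%, 80.0% and 83.4% in the larval libraries and 74.6%, 74.2% and 77.9% in the embryo libraries. All larval libraries lay above all embryo libraries, with means of 81.5% ± 1.7 and 75.6% ± 2.0 (SD, n = 3 each), a difference of 5.88 percentage points. From gypsy2 the larval libraries had 81.8%, 81.0% and 84.2% and the embryo libraries 75.5%, 75.3% and 80.3%. Here too the groups did not overlap, and the difference was 5.28 points. After thinning the differences were 5.89 and 5.27 points. The deeper embryo reference had 69.0% to 75.2% from PRE2, again below every larval library, and 77.2% to 81.6% from gypsy2, which reaches into the larval range and left a difference of 2.68 points; from PRE2 it was 9.47 points. Within each stage replicate 3 was the highest from both viewpoints, which were counted in the same samples and are not independent.

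**Figure D1:**
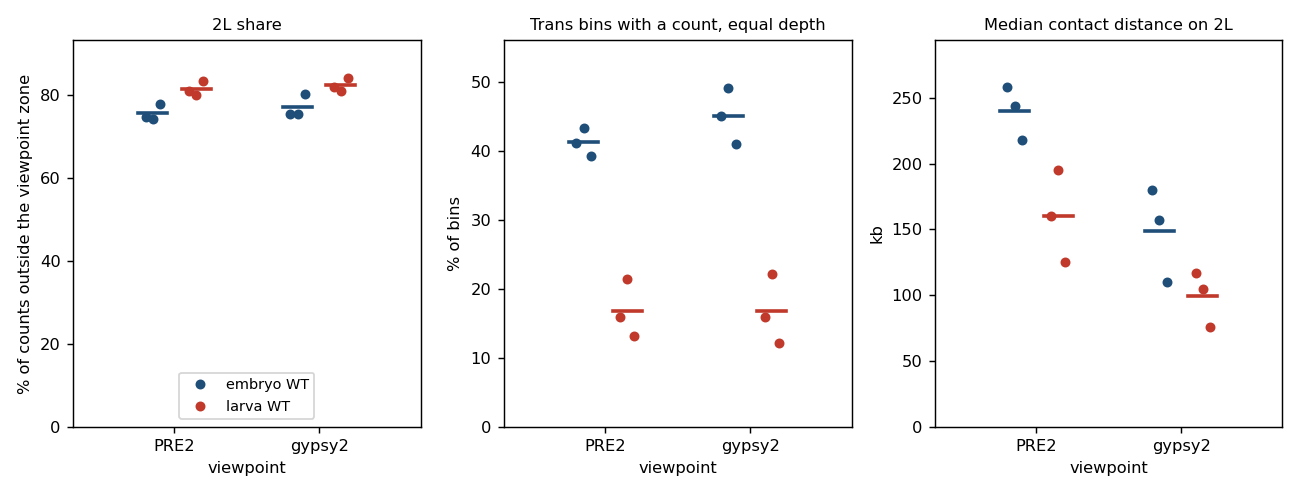
Share of counts on 2L (left, percent of counts outside the viewpoint zone), share of bins on other chromosomes with at least 1 count after thinning all libraries to equal depth (middle, percent of bins) and median contact distance on 2L (right, kb) for each viewpoint; dots are libraries, bars are means of 3, embryo in blue and larva in red. Larval libraries lie above embryo libraries on the left and below them in the middle for both viewpoints, while the median distances from gypsy2 overlap.

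The counts on other chromosomes, called trans counts here, were also spread differently. At equal depth 15.9%, 21.4% and 13.1% of the trans bins held at least 1 count in the larval libraries from PRE2, against 41.2%, 43.4% and 39.2% in the embryo libraries. From gypsy2 the larval libraries had 12.2% to 22.2% and the embryo libraries 41.1% to 49.1%. In neither case did the groups overlap, so the larval trans counts sat in fewer places. Thinning made the totals outside the viewpoint zone equal but not the trans counts, which were fewer in larvae. The part of this in the share of occupied trans bins was not tested. The deeper embryo reference lay between, at 30.1% to 35.8% from PRE2 and 24.6% to 33.2% from gypsy2. Lower occupancy was not limited to trans bins. On 2L, where larvae had the larger share of counts, 55.9% to 66.7% of bins held a count in larvae from PRE2 at equal depth. Embryo libraries had 75.4% to 76.6% there, and the deeper embryo reference, at 65.2% to 74.7%, overlapped with larvae. At the depth of each library, which is higher in larvae, an occupied trans bin held a mean of 11.6 to 17.4 counts in larval libraries from PRE2, of 2.80 to 4.02 in embryo libraries and of 37.8 to 43.7 in the deeper embryo reference. The part of this difference in the other results was not tested.

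Among trans counts, the right arm of the same chromosome, 2R, took the largest share in every larval and embryo library, and less of it in larvae. From PRE2 the 2R share of trans counts was 33.0%, 32.9% and 32.6% in larval and 34.8%, 33.7% and 35.8% in embryo libraries. From gypsy2 it was 32.2% to 32.5% and 33.0% to 34.9%, so the ranges did not overlap from either viewpoint. The deeper embryo reference lay below the larval libraries from PRE2, at 29.2% to 31.4%, the opposite direction, and around them from gypsy2, at 30.2% to 32.6%. The X chromosome took more in larvae, with 16.9% to 17.4% against 15.7% to 16.4% from PRE2 and 17.8% to 18.1% against 15.7% to 16.6% from gypsy2. For X the deeper embryo reference had 16.52% to 16.97% from PRE2, which overlaps the larval range and leaves a difference of 0.560 in place of 1.19 points, and 17.01% to 17.37% from gypsy2, still below every larval library. The shares of 3L, 3R and the small chromosome 4 overlapped between stages from both viewpoints.

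The counts on 2R were also placed differently along that arm. Each arm was cut into 5 segments of equal length, numbered from the centromere end, and the viewpoints lie in segment 2 of 2L, 29.9% and 30.0% of the arm away from that end. In embryos segment 2 of 2R, at the matching position, held most counts of that arm, 31.0%, 29.7% and 30.8% from PRE2. In larval libraries it held 26.9%, 28.2% and 27.7%, still the highest segment but below every embryo library. Segment 1, nearest the centromere, held 9.69%, 8.91% and 8.55% in larvae and 5.79%, 7.03% and 6.37% in embryos, a difference of 2.65 points, and segment 5, at the tip, held 18.3% to 19.1% in larvae and 15.3% to 16.9% in embryos. Segment 3 was lower in larvae as well, with 24.0% to 25.3% against 25.7% to 27.9%, and segment 4 overlapped (exact permutation p = 0.8). From gypsy2 segments 2, 1 and 5 held 26.5% to 28.3% in larvae against 29.4% to 30.3%, 8.06% to 9.81% against 6.18% to 7.20%, and 18.3% to 20.3% against 15.7% to 17.5%, none of them overlapping. Segment 3 from gypsy2, at 24.0% to 25.8% against 25.4% to 27.3%, overlapped (exact permutation p = 0.2). In the deeper embryo reference segment 1 was below all larval libraries as well, at 6.25% to 6.79% over both viewpoints. Its segment 2, at 27.8% to 28.9%, and its segment 5, at 19.2% to 20.6%, overlapped with larvae or lay above them, and its segment 3 overlapped with larvae, at 23.2% to 24.6%. The lower share of segment 2 was not seen on 2R alone. Over 3L, 3R and X pooled, segment 2 held 23.7% to 24.6% in larvae and 25.5% to 26.9% in embryos from PRE2, without overlap, and 24.1% to 24.9% against 24.5% to 26.6% from gypsy2, with overlap (exact permutation p = 0.2). Segment 3 of these arms was lower in larvae from both viewpoints, with 21.0% to 21.5% against 21.6% to 22.5% from PRE2 and 21.2% to 21.8% against 22.0% to 22.5% from gypsy2. From PRE2 both overlapped with larvae in the deeper embryo reference, at 23.6% to 23.8% for segment 2 and 20.4% to 21.2% for segment 3. From gypsy2 its segment 2, at 23.50% to 23.54%, lay below every larval library, the opposite direction. Segment 5 of these arms held 20.3% to 21.2% in larvae and 18.1% to 19.8% in embryos from PRE2, with the deeper embryo reference above both at 21.5% to 21.7%, and segment 1 held 13.0% to 13.5% and 12.5% to 14.0% (exact permutation p = 0.9). Whether 2R, the arm joined to 2L at the centromere, differs in this from the other arms was not tested.

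**Figure D2:**
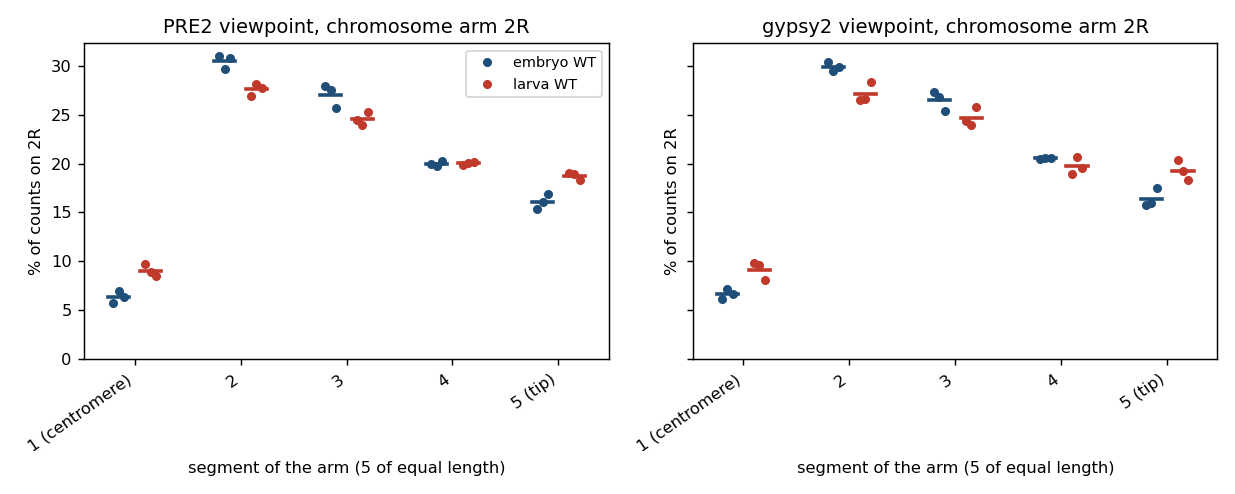
Share of the counts on chromosome arm 2R in each of 5 segments of equal length, from the centromere end (1) to the tip (5), for the PRE2 (left) and gypsy2 (right) viewpoints; dots are libraries, bars are means of 3, embryo in blue and larva in red. Segment 2 is lower and segments 1 and 5 are higher in every larval library than in any embryo library, and segment 3 is lower in this way from PRE2.

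On 2L itself contacts of PRE2 were more local in larval leg discs. The median distance of the 2L counts from the viewpoint was 160, 195 and 125 kb in larval libraries and 258, 244 and 218 kb in embryo libraries from PRE2, without overlap. From gypsy2 it was 117, 105 and 76 kb in larvae and 180, 157 and 110 kb in embryos, and these ranges overlapped (exact permutation p = 0.2). The decay exponent, the slope of log2 mean count per bin on log2 distance from 10 to 1000 kb, was -1.22, -1.17 and -1.25 in larvae and -1.12, -1.11 and -1.17 in embryos from PRE2. The flattest larval and the steepest embryo library nearly met, and the difference of means was -0.0775. From gypsy2 the means were -1.36 ± 0.03 and -1.29 ± 0.03 (SD, n = 3 each), with overlap (exact permutation p = 0.2). Split by side, the decay towards higher coordinates was steeper in every larval library than in any embryo library from both viewpoints, -1.10 to -1.05 against -1.01 to -0.930 from PRE2 and -1.25 to -1.20 against -1.16 to -1.10 from gypsy2. Towards lower coordinates, the *CG5888* side, the ranges overlapped from both viewpoints (exact permutation p = 0.2 in each case).

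Distance classes show where the shares moved. From PRE2, bins 5 to 10 kb away on the *dac* side held 2.90%, 3.46% and 3.48% of the 2L counts in larvae and 2.05%, 2.22% and 2.26% in embryos. Those 50 to 100 kb away on this side, over most of *CG5888*, held 15.4%, 12.8% and 16.5% in larvae and 12.3%, 12.2% and 12.6% in embryos; larval replicate 2 lay just above the embryo libraries and the other larval libraries further up. On the opposite side the classes out to 100 kb were all higher in larvae without overlap, for example 25 to 50 kb with 2.57%, 2.56% and 2.71% against 1.99%, 2.10% and 2.20%. The sign then turned: 100 to 200 kb away on this side, over the far part of *mtgo* and the genes after it, larvae held 3.32%, 3.83% and 3.45% and embryos 4.31%, 4.41% and 4.29%. From gypsy2 the same turn was seen between 100 and 200 kb, where larvae had 1.71% to 1.80% and embryos 2.14% to 2.40% at higher coordinates. At lower coordinates in that class, beyond *CG5888*, larvae instead had 4.43%, 4.41% and 4.28% and embryos 3.26%, 3.33% and 3.03%. The deeper embryo reference, at 2.55% to 2.61% towards higher and 2.73% to 2.90% towards lower coordinates, lay on the embryo side in both. Over both viewpoints 12 of 20 classes on the lower side and 12 of 20 on the higher side had ranges that did not overlap (60.0% each).

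The log2 ratio of counts at 5 to 500 kb towards lower over higher coordinates was 1.23, 0.99 and 1.27 in larvae and 1.06, 1.01 and 1.11 in embryos from PRE2, so the *CG5888* side held more counts in every library. Larval replicate 2 was below all embryo libraries, and the difference of 0.10 did not exceed the spread (exact permutation p = 0.4). It was 0.19 without larval replicate 2 and 0.23 against the deeper embryo reference. From gypsy2 the log2 ratio was 0.96, 1.13 and 1.0 in larvae and 0.79, 0.88 and 0.91 in embryos, a difference of 0.17 with no overlap; it was 0.10 with 10 kb on either side left out.

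**Figure D3:**
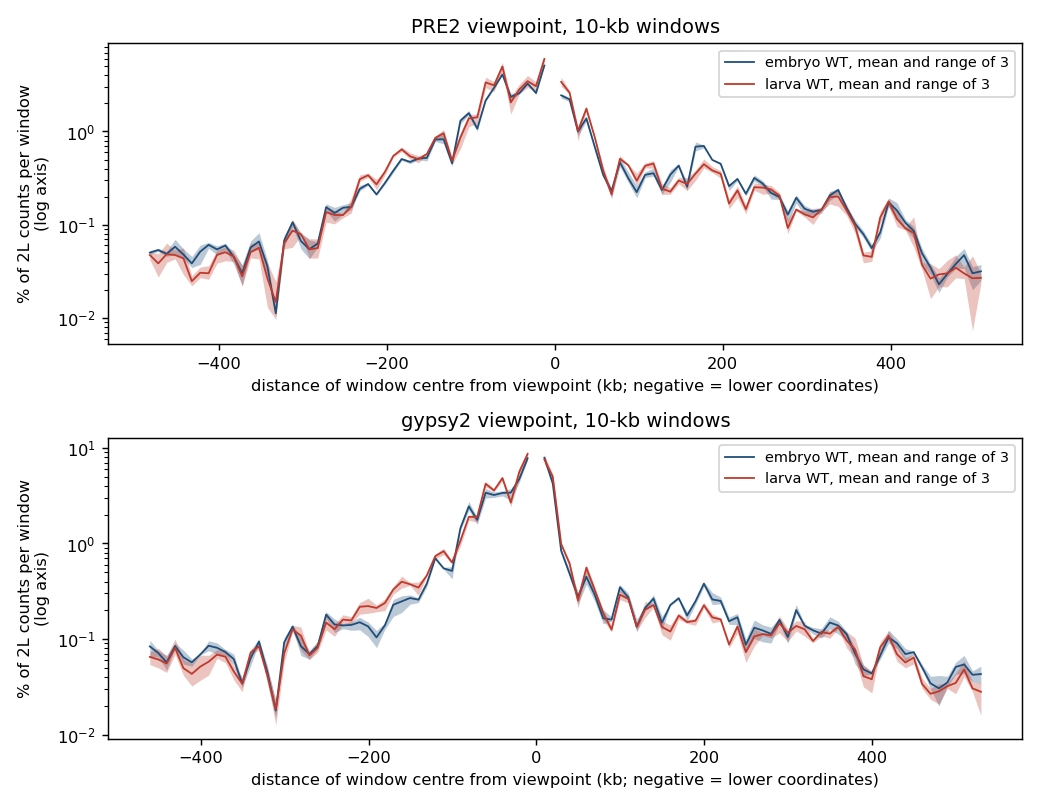
Share of the 2L counts in each 10-kb window (percent, log axis) against the distance of the window centre from the viewpoint (kb, negative towards lower coordinates) for PRE2 (top) and gypsy2 (bottom); lines are means and bands the range of 3 libraries, embryo in blue and larva in red. The larval line runs above the embryo line about 200 kb towards lower coordinates and below it about 200 kb towards higher coordinates.

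Gene by gene, *dac* and its neighbours at higher coordinates had larger shares from PRE2 in larvae. The body of *dac*, of which 16 of 20 bins lie outside the viewpoint zone, held 8.03%, 8.87% and 8.76% of the 2L counts in larvae and 6.89%, 6.85% and 7.09% in embryos. Every larval library was above every embryo library, by 1.61 points on average, and by 0.904 with the highest bins capped. *Tpr2* held 4.95%, 5.59% and 5.30% against 3.85%, 4.28% and 4.20%, and *CG5953* 4.03%, 3.69% and 4.27% against 3.23%, 3.21% and 3.51%, again without overlap. At *CG5953* the deeper embryo reference, at 3.65% to 3.76%, reached into the larval range and left a difference of 0.308 in place of 0.680 points. *CG5888*, which carries PRE1, held 16.4%, 13.8% and 17.8% in larvae and 13.9%, 13.7% and 14.0% in embryos. Larval replicate 2 fell within the embryo range, and the difference of 2.15 points did not exceed the spread (exact permutation p = 0.3); without larval replicate 2 it was 3.27 points. *Idgf1* held 0.692% to 0.876% against 0.558% to 0.615%, whereas *Idgf2* and *Idgf3* overlapped between stages. *mtgo*, which encodes a fibronectin type III domain protein, held 3.85%, 4.31% and 3.83% in larvae and 4.16%, 4.49% and 4.05% in embryos, which overlapped (exact permutation p = 0.3).

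From gypsy2 the ranges overlapped at *dac* and were apart at *CG5888*. *dac* held 10.7%, 9.80% and 12.1% in larvae and 10.7%, 10.1% and 11.3% in embryos, with the larval libraries on both sides of the embryo ones (exact permutation p = 0.9). *CG5888* held 19.0%, 20.7% and 21.1% against 16.8%, 17.4% and 18.6%, a difference of 2.67 points without overlap. *Tpr2* held 1.08% to 1.25% against 0.888% to 1.04%, and *mtgo* was lower in larvae, with 2.19%, 2.10% and 2.07% against 2.49%, 2.81% and 2.57%. *Nepl8*, which lies next to PRE2 and could be measured from gypsy2 only, held 1.43%, 1.40% and 1.58% in larvae and 1.39%, 1.25% and 1.42% in embryos, which overlapped (exact permutation p = 0.2). In the class 10 to 25 kb towards higher coordinates, which takes in PRE2, larvae had 7.85%, 7.47% and 8.87% and embryos 6.57%, 6.94% and 7.38%, while the deeper embryo reference, at 7.57% to 7.85%, lay within the larval range.

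**Figure D4:**
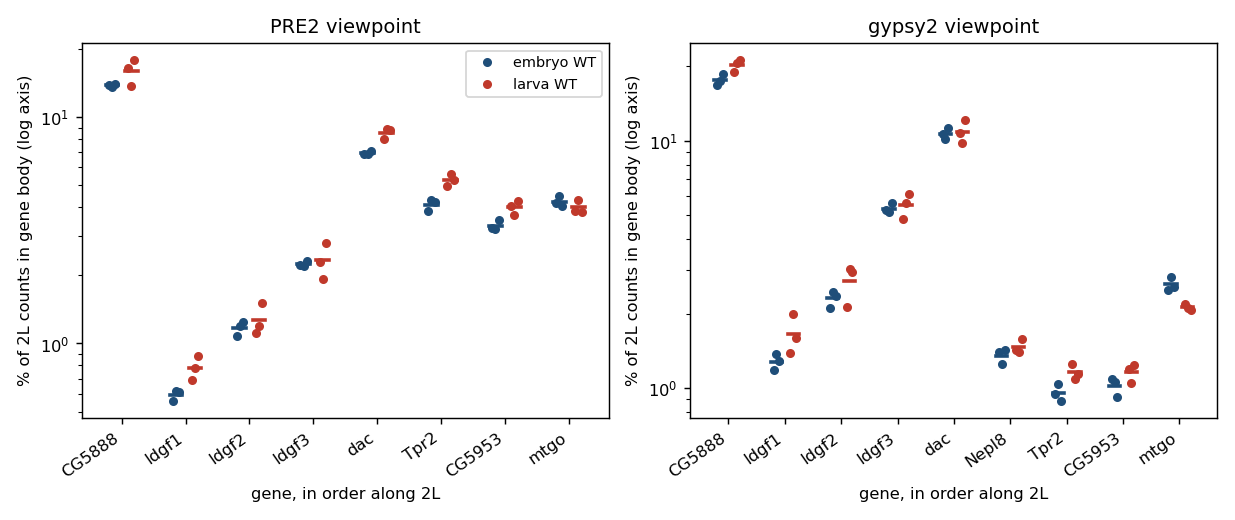
Share of the 2L counts in each gene body (percent, log axis) from the PRE2 (left) and gypsy2 (right) viewpoints, genes in their order along 2L; dots are libraries, bars are means of 3, embryo in blue and larva in red. From PRE2 the larval values of dac, Tpr2, CG5953 and Idgf1 lie above all embryo values, and from gypsy2 those of CG5888, Idgf1 and Tpr2 lie above and those of mtgo below.

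Windows of 10 kb from 16 to 17 Mb were tested with edgeR's quasi-likelihood test, scaled to each library's 2L total. From PRE2 33 of 99 windows (33.3%) had an adjusted p under 0.05, 17 higher in larvae (17.2%) and 16 lower (16.2%), and from gypsy2 25 of 99 (25.3%), 13 higher (13.1%) and 12 lower (12.1%). Of the 98 windows measured from both viewpoints, 9 were higher and 10 lower in larvae from both, and no window was called in opposite directions. The viewpoints share samples, so this is not a repeat. Ranges of larval and embryo libraries did not overlap in 36 of 99 windows from PRE2 (36.4%) and in 37 from gypsy2 (37.4%). Among called windows they were apart in 15 of the 17 higher and 15 of the 16 lower ones from PRE2, and in 12 of 13 and 11 of 12 from gypsy2. Against the deeper embryo reference 22 of the 33 and 20 of the 25 were called in the same direction. The log2 change of 1 called window from PRE2 had the opposite sign there, whether called or not. The count from PRE2 rests most on embryo replicate 1, without which 12 windows were called, all of them among the 33.

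The longest runs of adjacent called windows lay in 2 blocks, and other called windows lay outside them. The blocks were picked out after the calls were seen and are described without a further test. The first lay at lower coordinates, beyond *CG5888*. From gypsy2 8 adjacent windows from 16250001 to 16330000, -215.5 to -135.5 kb from the viewpoint (negative towards lower coordinates), were all higher in larvae, and together they held 2.39%, 2.50% and 2.11% of the 2L counts in larvae against 1.65%, 1.67% and 1.27% in embryos. The block holds 22 protein-coding genes, among them *crp*, which encodes a helix-loop-helix factor, *twe*, the meiotic Cdc25 phosphatase, *fzy*, an activator of the anaphase-promoting complex, *cact*, the inhibitor of Dorsal, and *cni*, a cargo receptor for the TGF-alpha ligand Gurken. The window from 16270001 within *crp* rose most, from 0.108%, 0.123% and 0.0812% in embryos to 0.215%, 0.227% and 0.193% in larvae (log2 change 1.02, SE 0.16, adjusted p = 6.94e-08, edgeR). Its neighbours from 16280001 (*crp* and *pkaap*, log2 change 0.77), 16260001 (*twe*, *CG4935* and *crp*, 0.70) and 16300001 (*Syx5*, *cni*, *c(2)M*, *GMF* and others, 0.68) followed. The window from 16350001, with the replication factor gene *chif* and *CaBP1*, rose as well, from 0.543%, 0.537% and 0.566% to 0.888%, 0.764% and 0.845%. From PRE2 6 windows of the same block, from 16250001 to 16310000, were called, and they held 2.41%, 2.56% and 2.46% in larvae and 1.87%, 1.98% and 1.84% in embryos. The change there was smaller, with log2 values of 0.31 to 0.52, the highest in the window from 16290001 with the prenyltransferase gene *heix* and the cytochrome P450 gene *Cyp303a1*. The block also separated larvae from the deeper embryo reference, at 1.04% to 1.16% from gypsy2 and 1.90% to 2.11% from PRE2. The difference between the viewpoints was not tested.

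The second block lay at higher coordinates and was lower in larvae. From PRE2 8 adjacent windows from 16650001 to 16730000, 162.5 to 242.5 kb away, held 2.30%, 2.48% and 2.22% of the 2L counts in larvae and 3.50%, 3.36% and 3.45% in embryos. They run from the end of *mtgo* over the ion channel gene *Trpgamma*, the checkpoint kinase gene *grp* and *Cyt-c-d* and *Cyt-c-p*, the cytochrome c genes. The window from 16650001, at the end of *mtgo*, fell most in the block, from 0.673%, 0.619% and 0.771% to 0.375%, 0.385% and 0.298% (log2 change -0.96, SE 0.11, adjusted p = 4.60e-14, edgeR), and the next, which takes in *Trpgamma*, by a log2 of -0.65. From gypsy2 5 windows from 16650001 to 16700000 formed a run, with 0.837%, 0.815% and 0.742% in larvae against 1.40%, 1.24% and 1.23% in embryos. There the window from 16620001 in *mtgo* fell most, from 0.230%, 0.224% and 0.227% to 0.140%, 0.122% and 0.0971% (log2 change -0.92, adjusted p = 3.51e-07, edgeR), followed by that from 16690001 in *grp* (-0.81) and that from 16660001 (-0.75). The deeper embryo reference was higher still from PRE2, at 4.42% to 4.57%, and at 1.20% to 1.28% from gypsy2. The near part of *mtgo* did the opposite from PRE2: 4 windows from 16570001 to 16610000 held 1.52%, 1.73% and 1.60% in larvae and 1.18%, 1.40% and 1.13% in embryos, and from gypsy2 none of them was called and their summed ranges overlapped, at 0.813% to 0.847% and 0.823% to 0.977%. From PRE2 *mtgo* thus held windows higher in larvae in its part nearer the viewpoint, though not at its very start, and windows lower in larvae towards its end.

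**Figure D5:**
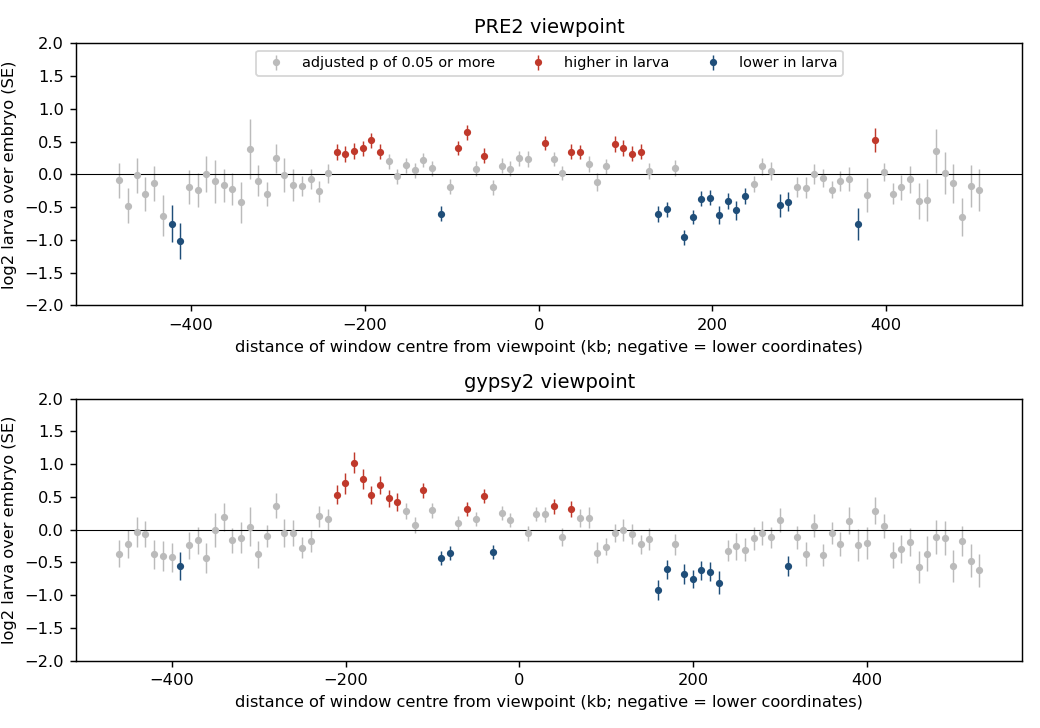
Log2 of larval over embryo share in each 10-kb window (dots, with SE from edgeR) against the distance of the window centre from the viewpoint (kb, negative towards lower coordinates) for PRE2 (top) and gypsy2 (bottom); red windows were higher and blue windows lower in larvae at an adjusted p under 0.05, grey ones were not called. Red windows gather about 200 kb towards lower coordinates and blue ones about 200 kb towards higher coordinates.

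Between the blocks changes were of mixed sign, and some were as large as those within them. The window at the far end of *CG5888*, from 16400001, rose most from PRE2, from 2.13%, 2.09% and 2.24% in embryos to 3.32%, 2.94% and 3.81% in larvae (log2 change 0.64, SE 0.11, adjusted p = 8.73e-07, edgeR). The window from 16420001, also in *CG5888*, rose from both viewpoints, with 5.06%, 4.34% and 5.50% against 4.03%, 4.18% and 4.04% from PRE2 (log2 change 0.28, adjusted p = 0.0450, edgeR) and 4.51%, 4.94% and 5.07% against 3.15%, 3.56% and 3.44% from gypsy2 (0.52). Beyond *CG5888* the window from 16370001, which holds no protein-coding gene, fell from both, with 0.955%, 0.654% and 0.981% against 1.32%, 1.21% and 1.39% from PRE2 (-0.60) and a log2 change of -0.44 from gypsy2. The window from 16490001, whose bins outside the PRE2 viewpoint zone lie in *Tpr2*, rose from 2.27%, 2.55% and 2.50% to 3.05%, 3.82% and 3.34% (log2 change 0.48). From gypsy2 it held 1.02%, 1.0% and 0.940% against 0.830%, 0.886% and 0.799% (adjusted p = 0.111, edgeR). The other named windows from PRE2 lay far out and at low shares: 2 in *beat-Ia*, a cell adhesion gene of motor axon guidance, at log2 changes of -1.01 and -0.75, 1 with *CG31809* and *CG31810* at -0.75 and 1 with *CG32832* at 0.53. Those in *beat-Ia* and that of *CG32832* were not called against the deeper embryo reference. From gypsy2 the *beat-Ia* window from 16070001 was called as well, at -0.56. Windows of *Mhc*, the muscle myosin heavy chain gene, fell from both viewpoints, that from 16770001 by log2 values of -0.42 from PRE2 and -0.55 from gypsy2. In sequence, the windows higher in larvae from gypsy2 held a median of 1.8 GAGAG matches per kb and 3 genes, those lower 1.3 and 1, and the rest 1.3 and 1. From PRE2 the medians were 1.5, 1.45 and 1.3 matches per kb and 1 gene in each class.

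Further out on 2L most changes were losses. In 100-kb windows outside 16 to 17 Mb, 30 of 224 (13.4%) were called from PRE2, 25 lower (11.2%) and 5 higher in larvae (2.23%), and 9 of 225 (4.00%) from gypsy2, 7 lower (3.11%) and 2 higher (0.889%). The median log2 change of all these windows was -0.16 from PRE2 and -0.12 from gypsy2, since near windows took a larger share. With TMM factors, which remove this shift, 8 were lower and 10 higher from PRE2 and 3 lower and 4 higher from gypsy2. The window from 17500001, with the neurogenic factor gene *Oli*, fell from 0.509%, 0.465% and 0.392% to 0.227%, 0.301% and 0.248% from PRE2 (log2 change -0.82, adjusted p = 3.27e-09, edgeR) and by a log2 of -0.66 from gypsy2. That from 6800001, in the distal part of the arm, with *sens-2* and *Rca1*, fell from both, at -0.75 and -0.88. Of the 5 windows higher from PRE2, 4 started at 21800001 or beyond, towards the centromere, as did both from gypsy2. The window from 23000001, with *Spf45* and the chitinase gene *Cht10*, held 0.0954%, 0.0842% and 0.0683% in larvae and 0.0351%, 0.0361% and 0.0408% in embryos from PRE2 (log2 change 1.14, SE 0.21, adjusted p = 2.76e-06, edgeR) and rose by a log2 of 0.91 from gypsy2. Its neighbour with *lt* rose from PRE2 as well, by a log2 of 0.83, and that from 21800001 with *tsh*, a zinc finger gene of trunk identity, by 0.34. These counts rest on single libraries: from PRE2 7 windows were called without embryo replicate 1, 12 without embryo replicate 2 and 49 without larval replicate 2, and from gypsy2 2 without embryo replicate 1 or 2 and 22 without larval replicate 3.

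Other Polycomb targets on 2L did not move together. Of 20 listed genes, each taken with 10 kb on either side, 2 were lower and none higher in larvae from PRE2, where 139 of 2363 genes on 2L were called (5.88%), 130 of them lower (5.50%) and 9 higher (0.381%). The median log2 change of the list was 0.017 and that of all these genes -0.19. With TMM factors 1 of the 20 was called lower from PRE2. Without them the 2 were the zinc finger genes *esg* and *sna*, which lie close together. *esg* held 0.116%, 0.129% and 0.128% in larvae and 0.200%, 0.214% and 0.200% in embryos (log2 change -0.72, adjusted p = 0.00191, edgeR), and *sna* 0.117%, 0.127% and 0.135% against 0.221%, 0.197% and 0.173% (log2 change -0.64, adjusted p = 0.0049, edgeR). From gypsy2 none of the 19 tested was called, with *esg* at a log2 change of -0.48 (adjusted p = 0.111, edgeR). The gene *sna* was not among the 19, since genes near a viewpoint were left out and it lies nearer to gypsy2. From this viewpoint 5 of 2373 genes were called (0.211%), and the list had a median of 0.033 against -0.13. Members that did not pass the test lay on both sides: *wg*, *salm*, *slp2* and *tup* had log2 changes between 0.12 and 0.35 from both viewpoints, whereas *pdm2* had -0.40 from PRE2 and -0.37 from gypsy2 and *elB* -0.34 and -0.21. Of 18 ribosomal protein genes on 2L, taken as genes active at both stages, none was called from either viewpoint, with medians of -0.17 from PRE2 and 0.0041 from gypsy2. With TMM factors 1 of the 18 was called higher from PRE2. Of the 8 Hox genes on chromosome 3, *Scr*, *Antp* and *Ubx* among them, none was called as a share of trans counts, and the medians were 0.18 from both viewpoints against -0.095 and -0.076 for all trans genes. Here edgeR called none of 11240 and 11257 trans genes (0.00%), 768 and 658 had an unadjusted p under 0.05, and DESeq2 called 65 and 82. A Hox gene held few counts, for example *Ubx* a mean of 230 per library from PRE2, and its log2 change of 0.62 from PRE2 and -0.29 from gypsy2 went in opposite directions.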

How the data were processed

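The authors deposited raw counts of 4C-seq reads per 1-kb bin of dm6, one column per sample and viewpoint, with no normalization. The submitters' processing notes name Bowtie without a version, and no source used here says how duplicate reads were handled, so counts may include copies of a molecule. In the 4 tables used, 18 columns of samples outside this comparison were not used here. Samples, windows and gene lists were chosen with earlier results of these data known. Shares per library were compared with an exact two-sided permutation test. Windows of 10 kb, windows of 100 kb and genes with 10 kb on either side (mean count of at least 10) were tested with edgeR 4.0.16 (quasi-likelihood, R 4.3.3), scaled to the 2L total outside the viewpoint zone without TMM factors (for trans genes, to the trans total), with Benjamini-Hochberg adjustment over all features of a fit. The fits were tested on simulated data. DESeq2 1.42.0, TMM factors, thinned larval libraries, capped bins, other window sizes, the deeper embryo reference and leaving out each library were alternatives. Named windows were up to 5 called windows per viewpoint and direction with the largest change and no overlap of ranges, besides the genes around the viewpoints and the lists; other windows named were chosen after their values were seen. Gene models came from the BDGP6.54 annotation, release 115, and sequences from the release 6 genome.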

Additional observations from a re-analysis of the deposited data

How the results depend on the processing

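The cis share, the decay exponent and the side ratio kept their direction in all 62 alternative values. This leaves aside the share of 2L with each bin counted once. That share was added after the data were seen and follows from the occupancy of trans bins. The 20 named windows kept their direction too, but they had been chosen for ranges that did not overlap. Leaving out single libraries could therefore hardly reverse them, and thinning and refitting reused the same libraries. Of their alternative values, 10, in the windows from 16060001, 16070001, 16850001 and 16870001 from PRE2, were no longer past the threshold. Counts of called windows from PRE2 were 15 with 20-kb windows and 12 to 44 when leaving out single libraries, and from gypsy2 55 with 5-kb windows, 45 against embryo replicates 4 to 6 and 20 to 28 when leaving out single libraries. Far windows called from PRE2 were 18 with TMM factors, 85 against embryo replicates 4 to 6 and 7 to 49 without single libraries, and from gypsy2 25 with DESeq2, 59 against embryo replicates 4 to 6 and 2 to 22 without single libraries. Genes called on 2L from PRE2 were 70 with TMM factors, 526 against embryo replicates 4 to 6 and 12 to 303 without single libraries, and from gypsy2 54 with DESeq2, 333 against embryo replicates 4 to 6 and 0 to 55 without single libraries. TMM factors moved the median log2 change of these genes from -0.19 to 0.020 from PRE2 and from -0.13 to 0.012 from gypsy2, and turned 9 higher and 130 lower genes from PRE2 into 38 and 32. DESeq2 called 65 and 82 trans genes from PRE2 and gypsy2. Differences in gene body shares that reversed were all ones whose ranges overlapped. Against embryo replicates 4 to 6 these were *Idgf2* at -0.108 from PRE2 and -0.176 from gypsy2, *Idgf3* at -0.525 from gypsy2 and *dac* at -1.07 from gypsy2, in percentage points. Without single libraries the ranges were -0.0134 to 0.180 for *Idgf2* and -0.125 to 0.299 for *Idgf3* from PRE2, and -0.0948 to 0.525 for *Idgf3* and -0.445 to 0.706 for *dac* from gypsy2. The cause of these changes was not tested. Replicate numbers in the titles were shared by both groups, while the sample descriptions number the larval libraries 4, 5 and 6 and the embryo libraries 1, 3 and 4. Deviations of libraries with the same title number correlated at 0.060, 0.46 and 0.35 from PRE2 and 0.025, 0.12 and 0.33 from gypsy2. Not every library correlated best with its own number, and a pairing of the samples was not established. With the replicate number as a block 37 windows were called from PRE2 and 38 from gypsy2. Stage and depth cannot be told apart beyond the thinned values, and 3 libraries per group limit the exact permutation test of a single value to p = 0.1.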
